A study of Mus musculus with 5 samples.

Results

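The genes described here are 10 transcripts of the vascular endothelial growth factor (VEGF) axis and of receptors best known from endothelial cells: the ligands Vegfa, Vegfb and Vegfc, the receptor tyrosine kinases Flt1 and Flt4, the coreceptors Nrp1 and Nrp2, the vascular receptor phosphatase Ptprb, the endothelial surface protein Ecscr and the mannose receptor Mrc1. They were taken from a list of symbols, and all 10 were found among the 52029 genes of the table that holds 4 of the libraries and again in the separate table of the fifth. The list was drawn up with results from these libraries in view, so the values of its members are given as description and without p-values, and calls among them are only counted. RNA was sequenced from mouse hepatobiliary organoids, which are cultures of wild-type primary liver stem/progenitor cells grown in 3 dimensions. The 2 libraries of organoids grown alone were at passage 1 (P1), and the 3 of organoids grown together with endothelial cells from liver were at passage 8 (P8), all after 10 days. The labels assign both groups one medium, which held EGF, heparin, an endothelial cell growth supplement abbreviated ECGS, nicotinamide and serum replacement, among other supplements. Passage differed together with co-culture, and the labels do not say whether endothelial cells were removed before RNA was isolated, so the effects of co-culture, of passage and of carried-over RNA on these values cannot be told apart. Nothing in the labels says that the libraries came from separate animals or cultures, so errors and p-values measure how far these libraries scatter, and that scatter may be technical.

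VEGF ligands are secreted growth factors that bind receptor tyrosine kinases on endothelial cells. VEGF-A acts mainly through KDR (VEGFR2), with FLT1 (VEGFR1) acting in part as a decoy, while VEGF-B binds FLT1 and VEGF-C binds FLT4 (VEGFR3), the receptor of lymphatic endothelium. Neuropilins hold VEGF ligands and class 3 semaphorins at the cell surface. In the liver, epithelial cells are a source of VEGF-A, and sinusoidal endothelial cells carry its receptors; Vegfa is also a classical target of the hypoxia-inducible factors (HIFs).

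The promoters of the 3 ligand genes are shown because the levels of these ligands differed in opposite directions between the groups. Each run is the 250 bases before the first start site that RefSeq gives for the gene, read 5′ to 3′ on the gene's strand in GRCm38.p6, with any hypoxia response core (ACGTG or GCGTG on either strand) in capitals. The windows lie at chr17:46032378-46032627 on the minus strand for Vegfa, chr19:6987652-6987901 on the minus strand for Vegfb and chr8:54077282-54077531 on the plus strand for Vegfc.
Vegfa: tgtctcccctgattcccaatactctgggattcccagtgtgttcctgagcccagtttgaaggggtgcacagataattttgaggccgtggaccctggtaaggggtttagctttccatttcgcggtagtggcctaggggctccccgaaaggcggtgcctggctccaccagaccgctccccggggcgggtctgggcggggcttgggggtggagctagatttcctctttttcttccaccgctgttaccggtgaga
Vegfb: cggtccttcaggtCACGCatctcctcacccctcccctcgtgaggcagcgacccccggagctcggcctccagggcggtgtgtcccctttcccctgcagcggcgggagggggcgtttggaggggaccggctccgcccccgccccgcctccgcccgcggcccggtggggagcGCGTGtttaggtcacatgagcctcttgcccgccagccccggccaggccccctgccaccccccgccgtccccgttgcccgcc
Vegfc: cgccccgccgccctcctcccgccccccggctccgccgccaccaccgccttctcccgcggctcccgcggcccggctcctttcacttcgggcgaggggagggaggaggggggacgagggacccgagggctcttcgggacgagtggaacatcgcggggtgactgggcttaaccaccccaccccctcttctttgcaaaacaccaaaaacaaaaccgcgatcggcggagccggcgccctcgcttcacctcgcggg
Vegfb held the core 237 and 81 bases before its start, while these letters were in neither the Vegfa nor the Vegfc window shown. Bases further than 250 before a start were not searched, so a core there would not be seen. A second RefSeq window of Vegfa, at chr17:46025164-46025413 on the minus strand and not shown, held the core 218 and 211 bases before its start. That window lies inside the Vegfa gene, which spans 46016993 to 46032369, so these letters are not upstream of the gene. RefSeq windows were found for 8 of the 10 genes, all but Ptprb and Ecscr. Of those 8, 4 first windows held the core (Flt1, Nrp1, Nrp2 and Vegfb), where 38.6% of the 32851 windows in the reference did. The GC box, searched as GGGCGG on either strand, was in all 8 windows and in 32.7% of all windows. An ETS core, searched as CCGGAAG, was in 0 of the 8 and in 6.91% of all windows, and TATAAA was in 1, that of Flt1, against 12.4%. These 3 windows were rich in G and C: 59.2% of bases in Vegfa, 76.4% in Vegfb and 71.6% in Vegfc, against a median of 52.4% over all windows. These are matches of letters and not binding sites.

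Libraries are named here by the columns of the deposited table: M11 and M12 are the organoids alone, and M9 and M10 are 2 of the co-cultures. The table does not tie either column of a group to a replicate number. The other co-culture, called the third library, lies in a table of its own made with other gene models, and its column carries a library number that differs from the one on its record. Matching of symbols joined 31131 genes, with 98.1% of its counts, and its differences from M11 and M12 are given with no test. Total counts ranged from 26466739 to 35878241 in the 4 libraries and reached 58853737 in the third, and mitochondrial transcripts took 2.3 to 2.8% of counts in the 4 and 6.0% in the third. M9 and M10 differed from each other more than M11 and M12 did, by chi-square over genes, 93.3 against 33.3 per degree of freedom. Both co-culture comparisons use the same M11 and M12.

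The organoids carried the epithelial label and almost none of the defining endothelial transcripts. Epcam, the adhesion molecule of biliary and progenitor epithelium, stood at 635.1 and 729.7 CPM, the read count scaled to the size of its library, in M11 and M12, 647.0 and 547.7 in M9 and M10 and 514.5 in the third library. Pecam1, the junctional marker of all endothelium, had 1, 2, 2, 2 and 10 counts in M11, M12, M9, M10 and the third library. Cdh5, the endothelial cadherin, had 3, 2, 6, 5 and 19 counts. Among 20 pan-endothelial markers, 13 had at most 10 counts in every library and 1 was at 0 in all 5, and the summed level of the list was 23.1 and 15.5 CPM alone, 13.8 and 13.5 in M9 and M10 and 7.52 in the third library. The co-culture libraries thus lay below both libraries of organoids alone in this sum, but for M9 and M10 that order was set by Sox17, whose values follow. The most abundant of these markers were Egfl7, a secreted vascular protein (6.87 and 7.44 CPM alone, 9.45, 9.56 and 5.32 in co-culture), and Sox17, a factor of endothelium and of biliary epithelium (12.8 and 4.49 CPM alone, 1.69, 0.592 and 0 in co-culture). Stab2, a scavenger receptor of sinusoidal endothelium, had 0, 0, 2, 5 and 0 counts, and Lyve1, a hyaluronan receptor of sinusoidal and lymphatic endothelium, 1, 3, 0, 0 and 3. The 12 sinusoidal markers summed to 5.17 and 6.92 CPM alone and to 6.72, 14.4 and 7.44 CPM in co-culture, the M10 sum being set largely by Bmp2 at 8.31 CPM. F8, which encodes coagulation factor VIII, stood at 0.755 and 0.772 CPM alone and 2.15, 2.34 and 4.93 CPM in co-culture. Of the 5 pan-endothelial and 6 sinusoidal markers that could be tested, edgeR called 0, where it called 2.24% of all genes tested. An unadjusted p under 0.05 was reached by 1 of each list, beside 2779 of all 15899 genes. DESeq2 called 1 and 0, beside 8.26% of all genes, and limma-voom called 0. The counts by edgeR rose when M9 was left out, as they did over all genes. In bulk RNA, fewer cells of a type and less RNA per cell cannot be told apart.

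**Figure D1:**
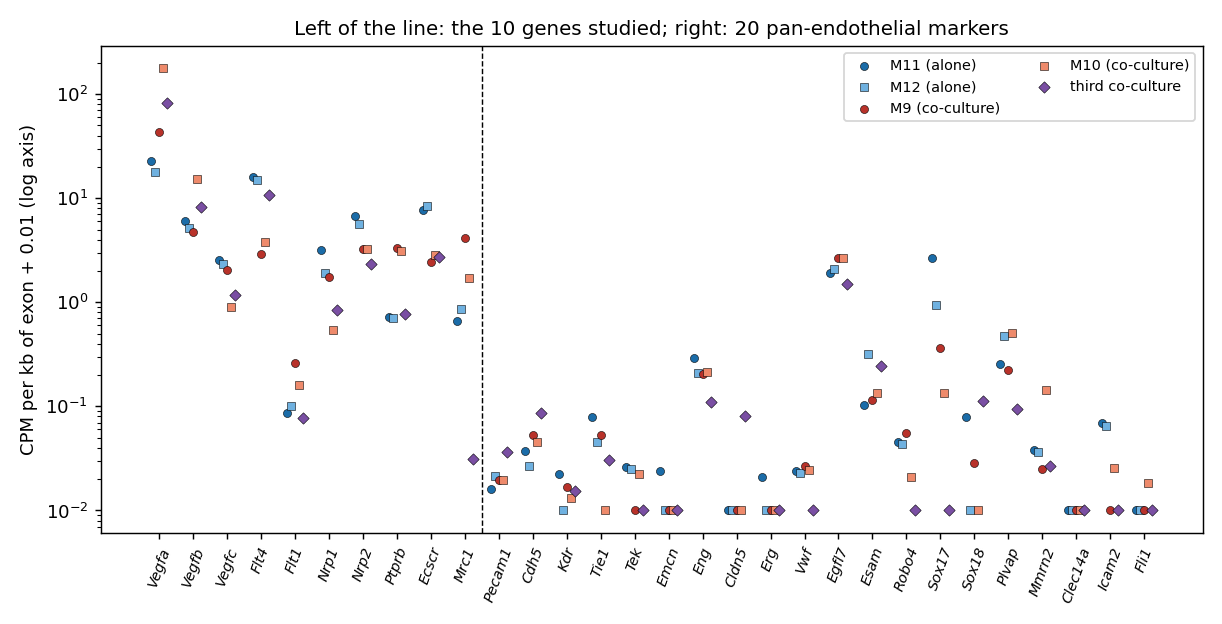
Level per exon length (CPM per kilobase plus 0.01, log axis) of the 10 genes, left of the dashed line, and of 20 pan-endothelial markers, right of it, with 1 point per library. Vegfa lies at 17.9 or above in every library, while Pecam1, Cdh5, Kdr, Tie1 and Tek lie at 0.0756 or below in all 5 before the 0.01 is added.

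Levels of different genes were compared as CPM per kilobase of annotated exon (CPM/kb), with the same lengths for all 5 libraries, and by this measure Vegfa was the most abundant of the 10 genes in every library. In organoids alone the order was Vegfa (22.6 CPM/kb in M11 and 17.9 in M12), Flt4 (16.1 and 15.1), Ecscr (7.65 and 8.32), Nrp2 (6.69 and 5.70), Vegfb (6.02 and 5.21), Nrp1 (3.19 and 1.91) and Vegfc (2.54 and 2.31). Ptprb (0.716 and 0.703) and Mrc1 (0.646 and 0.843) came next, and Flt1 (0.0755 and 0.0910) was last. The levels of Nrp2 and Vegfb overlapped over M11 and M12, as did those of Nrp1 and Vegfc and those of Ptprb and Mrc1, whereas Vegfa, Flt4 and Ecscr stood clear of one another. In M9 and M10, Vegfb was second after Vegfa, at 4.77 and 15.3 CPM/kb, while Flt4 stood at 2.92 and 3.79 and Ecscr at 2.44 and 2.85. In the third library Flt4 was second again at 10.6 CPM/kb.

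**Figure D2:**
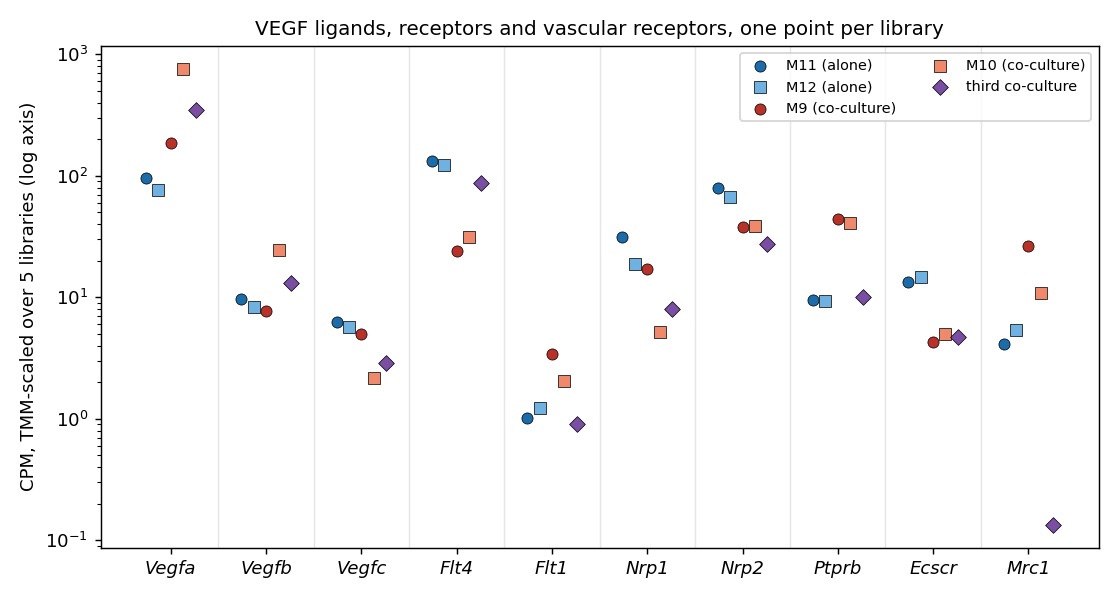
CPM (TMM-scaled over 5 libraries, log axis) of the 10 genes, with 1 point per library. All 3 co-cultures lie above both libraries of organoids alone for Vegfa and Ptprb and below both for Vegfc, Flt4, Nrp1, Nrp2 and Ecscr. For Ptprb the third library lies only just above M11.

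Vegfa, which encodes the main endothelial mitogen of the family, lies on chromosome 17 (46016993 to 46032369, minus strand, GRCm38). It stood at 96.8 CPM in M11 and 76.7 CPM in M12, and at 186.9 CPM in M9, 762.1 CPM in M10 and 350.4 CPM in the third library. The groups did not overlap, and M10 stood 4.08-fold above M9. The fitted log2 difference of M9 and M10 from organoids alone was 2.44 ± 0.62 (SE, n = 2 against 2), 5.44-fold higher. It was 3.13 without M9 and 1.12 without M10, so its size rests on which co-culture library is used. The third library differed from M11 and M12 by 2.02 on the log2 CPM scale, with a counting interval (95%, exact Poisson) of 345.7 to 355.2 CPM. Counting intervals here cover counting error only.

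Vegfb, the FLT1 ligand, lies on chromosome 19 (6982473 to 6987651, minus strand) and was the one gene of the 10 that M9 and M10 did not separate from organoids alone. It stood at 9.66 and 8.36 CPM alone, 7.66 CPM in M9, 24.6 CPM in M10 and 13.2 CPM in the third library. M9 lay below both libraries of organoids alone, and M10 lay 3.21-fold above M9. The log2 difference was 0.83 ± 0.53 (SE), with -0.22 without M10 and 1.45 without M9. In the third library the difference was 0.55 on the log2 CPM scale.

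Vegfc, the FLT4 ligand, lies on chromosome 8 (54077606 to 54187096, plus strand) and went the other way from Vegfa. It stood at 6.23 and 5.65 CPM alone, 4.97 CPM in M9, 2.16 CPM in M10 and 2.88 CPM in the third library. Every co-culture value lay below both values of organoids alone, but M9 lay close to M12. The log2 difference was -0.74 ± 0.48 (SE), or 1.66-fold lower, with -0.25 without M10 and -1.46 without M9. In the third library the difference was -1.03.

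The remaining ligands of the family were Pgf, the placental growth factor that binds FLT1, and Vegfd, a FLT4 ligand. Pgf had 20 and 57 counts alone, 167 and 418 in M9 and M10 and 5 in the third library, a log2 difference of 2.64 ± 0.66 (SE) that did not pass edgeR's quasi-likelihood test (adjusted p = 0.119). Vegfd had 18 and 13 counts alone and 15, 7 and 43 in co-culture (adjusted p = 0.629, edgeR). Of these 2 genes edgeR called 0, beside 2.24% of all genes tested. DESeq2 called 1, beside 8.26% of all genes, and limma-voom called 0. Summed over the 5 ligands, the level was 31.7 and 26.3 CPM/kb alone and 52.4, 198.4 and 91.5 CPM/kb in M9, M10 and the third library. Vegfa took 71.3 and 68.1% of that sum alone and 83.3, 89.6 and 89.4% in the co-cultures. The share of Vegfb was 19.0 and 19.8% alone against 9.12, 7.72 and 9.0%, and that of Vegfc was 8.02 and 8.78% alone against 3.87, 0.444 and 1.28%. The ligand transcripts of all 3 co-cultures thus held a larger part of Vegfa and smaller parts of Vegfb and Vegfc than those of either library of organoids alone, although in M10 and the third library the CPM of Vegfb itself was above that of organoids alone.

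**Figure D3:**
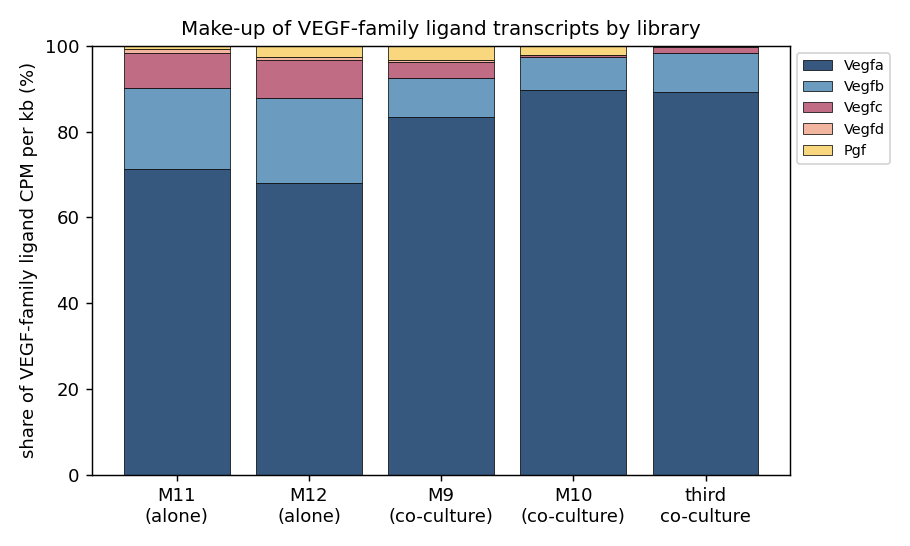
Share (%) of the summed CPM per kilobase of the 5 VEGF-family ligands that each ligand takes, with 1 bar per library. Vegfa takes 71.3 and 68.1% in M11 and M12 and between 83.3 and 89.6% in the 3 co-cultures.

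Beside Vegfa, 18 of 20 hypoxia-inducible genes had a positive log2 difference in M9 and M10, while 14 lay below organoids alone in the third library. Of the 20 genes, all tested, 8 rose and 0 fell in M9 and M10 (edgeR), where 2.24% of all 15899 genes tested were called, 0.994% higher and 1.25% lower. Their median log2 difference was 1.90, against 0.001 over all genes tested. Ldha, which makes lactate from pyruvate, rose by 1.72 ± 0.16 (SE, adjusted p = 0.0162, edgeR) and Pgk1, a glycolytic kinase, by 2.16 ± 0.23 (adjusted p = 0.0203, edgeR). Ankrd37 rose by 4.70 ± 0.50 (adjusted p = 0.0202, edgeR) and Slc16a3, the lactate exporter MCT4, by 5.76 ± 0.66 (adjusted p = 0.0216, edgeR). In the third library, Ldha, Pgk1 and Slc16a3 lay below organoids alone, by -1.29, -1.16 and -1.21 on the log2 CPM scale, and Ankrd37 lay above by 1.55. The log2 ratio of Vegfa to the mean of M11 and M12 was 1.11 (M9), 3.14 (M10) and 2.01 (the third library), and the median ratio of the 20 genes was 1.04, 2.42 and -0.65. Vegfa lay near the middle of the 20 genes in M9 (10 of 20 above it), above most in M10 (6 above it), and above every one of them in the third library (0 above it). Of the 10 HIF subunits and oxygen sensors, Egln3, a prolyl hydroxylase that is itself induced by HIF, rose by 2.43 ± 0.28 (adjusted p = 0.0218, edgeR) and none fell. Egln3 is also among the 20 hypoxia-inducible genes, so this call is already counted in the 8. In the third library Egln3 differed by -0.90. With all 5 libraries in the fit, 0 of the 20 genes and 0 of the 10 HIF subunits and sensors were called, beside 0.0135% of all genes. DESeq2 called 15 of the 20 and 4 of the 10, beside 8.26% of all genes, and limma-voom called 4 and 1. The counts by edgeR fell when M11 or M12 was left out and rose when M9 or M10 was. The number of calls over all genes moved in the same way. The part of oxygen supply in these levels was not tested.

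**Figure D4:**
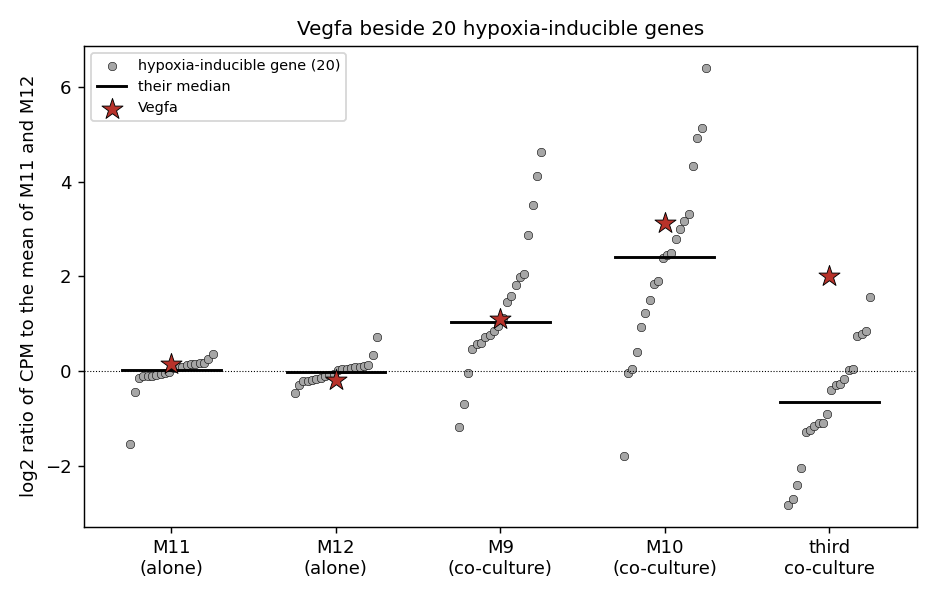
Log2 ratio of CPM to the mean of M11 and M12 for Vegfa (star) and for 20 hypoxia-inducible genes (grey points, black line at their median), by library. Vegfa stands at 1.11, 3.14 and 2.01 in M9, M10 and the third library, where the median of the 20 genes stands at 1.04, 2.42 and -0.65.

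Flt4, the receptor of VEGF-C and VEGF-D, lies on chromosome 11 (49609263 to 49652739, plus strand) and was well expressed in organoids alone. It stood at 132.7 CPM in M11 and 124.0 CPM in M12, at 24.1 and 31.2 CPM in M9 and M10 and at 87.3 CPM in the third library. M9 and M10 lay far below organoids alone, and the third library lay between them and organoids alone. The log2 difference of M9 and M10 was -2.22 ± 0.18 (SE), or 4.66-fold lower, and it moved only between -2.40 and -2.04 when any 1 library was left out. In the third library the difference was -0.56 on the log2 CPM scale; that table's other gene models can shift such values, by an amount not tested here. Prox1, the transcription factor that sets lymphatic endothelial identity and is also made by liver epithelium, fell in M9 and M10 by 1.45 ± 0.19 on the log2 scale (adjusted p = 0.0275, edgeR). Prox1 stood at 39.9 and 37.2 CPM alone, 13.7 and 14.6 CPM in M9 and M10 and 65.5 CPM in the third library, which was above organoids alone. Of the other lymphatic markers, Pdpn, a surface mucin of lymphatic endothelium and mesothelium, fell from 145 and 345 counts to 7 and 8 (adjusted p = 0.0211, edgeR), with 21 in the third library. Reln, a secreted matrix protein, did not pass the test (adjusted p = 0.0661, edgeR), Mmrn1 had 1, 1, 0, 1 and 10 counts, and Ccl21a was at 0 in all 5 libraries. The lymphatic list counted 2 of 3 tested genes lower, beside 1.25% of all genes. With all 5 libraries in the fit it counted 0, beside 0.0135% of all genes called. Its count fell when M11 or M12 was left out and rose when M9 or M10 was, as over all genes.

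Flt1, the high-affinity receptor of VEGF-A and VEGF-B, lies on chromosome 5 (147561604 to 147726011, minus strand) and was the least abundant of the 10 per length in all libraries but the third, where Mrc1 was lower. It had 27 and 35 counts alone (1.02 and 1.23 CPM), 113 and 69 in M9 and M10 (3.42 and 2.04 CPM) and 54 in the third library (0.903 CPM, interval 0.678 to 1.18). M9 and M10 lay above organoids alone, and the third library did not. The log2 difference of M9 and M10 was 1.28 ± 0.48 (SE), or 2.42-fold higher, and that of the third library was -0.29. Kdr, the main signalling receptor of VEGF-A, had 3, 0, 2, 1 and 3 counts in M11, M12, M9, M10 and the third library and could not be tested; a count of 0 allows up to 3 counts, or 0.103 CPM in M12. Per exon length, Flt4 exceeded Flt1 213.7-fold and 165.5-fold in organoids alone and 158.6-fold in the third library, but 11.5-fold and 25.1-fold in M9 and M10.

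The neuropilins, coreceptors that bind both VEGF ligands and class 3 semaphorins, were lower in all 3 co-cultures than in either library of organoids alone. Nrp1, on chromosome 8 (128358604 to 128503363, plus strand), stood at 31.2 and 18.7 CPM alone, 17.2 CPM in M9, 5.15 CPM in M10 and 8.07 CPM in the third library. M9 lay only just below M12, and M9 lay 3.33-fold above M10. The log2 difference was -1.16 ± 0.58 (SE), or 2.23-fold lower, but -0.53 without M10 and -2.28 without M9. The third library's difference was -1.57. Nrp2, on chromosome 1 (62703285 to 62818695, plus strand), had less spread: 79.2 and 67.5 CPM alone, 38.2 and 38.7 CPM in M9 and M10, and 27.3 CPM in the third library. Its log2 difference was -0.93 ± 0.16 (SE), or 1.91-fold lower, and the third library differed by -1.42. Per exon length, Nrp2 exceeded Nrp1 2.09-fold and 2.98-fold alone and 1.84-fold, 6.21-fold and 2.79-fold in M9, M10 and the third library.

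Of 12 semaphorins and plexins that share the neuropilins, 10 had enough counts to be tested, and edgeR called 0 of them, with a median log2 difference of 0.16. Over all genes tested, edgeR called 2.24%. An unadjusted p under 0.05 was reached by 2 of the 10, beside 2779 of all 15899 genes. DESeq2 called 2, beside 8.26% of all genes, and limma-voom called 0. The count by edgeR rose when M9 or M10 was left out, as it did over all genes. Sema3c and Sema3e are secreted guidance ligands. Sema3c stood at 319.7 and 310.5 CPM alone, against 168.7, 312.4 and 298.6 CPM in M9, M10 and the third library. Sema3e stood at 370.7 and 288.9 CPM alone, against 205.4, 317.2 and 123.4 CPM in the co-cultures. Plxnd1, the semaphorin 3E receptor of vascular cells, stood at 4.15 and 4.78 CPM alone, against 12.7, 15.7 and 11.3 CPM in the co-cultures, a log2 difference of 1.67 ± 0.28 (SE) with an adjusted p of 0.0506 by edgeR; it was picked out after its values were seen.

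Ptprb encodes the vascular endothelial receptor phosphatase VE-PTP, which restrains TIE2 and VEGFR2 signalling, and lies on chromosome 10 (116275523 to 116389535, plus strand). It stood at 9.55 and 9.37 CPM alone, against 44.4 and 41.0 CPM in M9 and M10 and at 10.1 CPM in the third library (interval 9.28 to 10.9). M9 and M10 were far above organoids alone and close to each other, whereas the third library lay just above M11, within its own counting interval. The log2 difference of M9 and M10 was 2.17 ± 0.19 (SE), or 4.50-fold higher, and it stayed between 2.11 and 2.24 when any 1 library was left out. For the third library the difference was 0.09. Of its relatives in the same phosphatase class, edgeR called 0 of 2 tested, where it called 2.24% of all genes. An unadjusted p under 0.05 was reached by 1, beside 2779 of all 15899 genes. DESeq2 called 1, beside 8.26% of all genes, and limma-voom called 0. The count by edgeR rose when M9 or M10 was left out, as it did over all genes. Ptprj, a broadly expressed epithelial phosphatase, had a log2 difference of -0.10 (adjusted p = 0.825, edgeR), and Ptpro had 0, 3, 0, 2 and 0 counts. Ptprh, a phosphatase of gut and liver epithelium, had 19 and 51 counts alone and 261, 382 and 176 in the co-cultures (log2 difference 2.92 ± 0.53, adjusted p = 0.0587, edgeR). The receptor TIE2 (Tek), the known partner of VE-PTP, had 2, 2, 0, 2 and 0 counts.

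Ecscr, a small endothelial surface protein that regulates cell movement, lies on chromosome 18 on the minus strand. It stood at 13.4 and 14.6 CPM alone, 4.27 and 5.00 CPM in M9 and M10 and 4.75 CPM in the third library (interval 4.21 to 5.33). All 3 co-cultures lay close together and well below organoids alone. The log2 difference of M9 and M10 was -1.60 ± 0.27 (SE), or 3.02-fold lower, between -1.70 and -1.48 with any 1 library left out, and the third library differed by -1.55. Ecscr shares 62 of its 1752 exon bases with 1700066B19Rik on the opposite strand, which had 44 and 47 counts alone and 65 and 74 in M9 and M10, against 355 and 415 alone and 141 and 169 in M9 and M10 for Ecscr. Whether the counting used strand is not given in the sources used here. No other member shares exon bases with a gene that had counts.

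Mrc1, the mannose receptor CD206 of macrophages and sinusoidal endothelium, lies on chromosome 2 (14229392 to 14332057, plus strand) and differed most between the co-culture libraries. It had 109 and 153 counts alone (4.11 and 5.37 CPM), 872 in M9 (26.4 CPM), 364 in M10 (10.8 CPM) and 8 in the third library (0.134 CPM, interval 0.058 to 0.264). M9 and M10 lay above organoids alone and the third library far below. The log2 difference of M9 and M10 was 1.97 ± 0.48 (SE), or 3.92-fold higher, with 1.18 without M9 and 2.49 without M10, and the third library differed by -4.65. The macrophage markers Adgre1, Clec4f and Timd4 were at 0 counts in all 5 libraries, and Ptprc, the leukocyte antigen CD45, had 8, 3, 4, 3 and 0 counts. In all, 10 of the 14 macrophage and Kupffer cell markers had at most 10 counts in every library. The list summed to 681.3 and 601.1 CPM alone and 320.7, 293.0 and 422.9 CPM in co-culture, mostly from Cd14, a lipopolysaccharide coreceptor that epithelium can also make. Cd14 fell in M9 and M10 by 1.22 ± 0.18 on the log2 scale (adjusted p = 0.0349, edgeR), and Lyz2, a lysozyme of myeloid cells, fell from 240 and 64 counts to 4 and 2 (adjusted p = 0.0451, edgeR), with 0 in the third library. Of the 4 macrophage markers tested, these 2 were called, beside 2.24% of all genes. With all 5 libraries in the fit 0 were called, beside 0.0135% of all genes. The count also fell when M11, M12 or M10 was left out. Of 3 relatives of Mrc1, edgeR called 0, beside 2.24% of all genes. An unadjusted p under 0.05 was reached by 1, beside 2779 of all 15899 genes. DESeq2 called 0, beside 8.26% of all genes, and limma-voom called 0. The count by edgeR rose when M9 or M10 was left out, as it did over all genes. Ly75 differed by -0.31 (adjusted p = 0.670, edgeR), Mrc2 had 43, 53, 0, 22 and 42 counts and Pla2r1 had 18, 22, 4, 3 and 0.

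Mesenchymal markers summed to 27.5 and 84.8 CPM alone and 2.42, 3.22 and 8.14 CPM in co-culture. All 6 that could be tested had a negative log2 difference in M9 and M10, with a median of -4.87, where 7938 of all 15899 genes tested were negative. All 6 had an unadjusted p under 0.05 (edgeR), beside 2779 of all genes. In the third library all 6 lay below organoids alone, with a median of -2.64. Of 6 tested, Rgs5, a pericyte gene, and Col3a1, a fibroblast collagen, fell (adjusted p = 0.0354 and 0.0371, edgeR), from 267 and 248 counts to 38 and 17 for Rgs5 and from 71 and 351 counts to 0 and 1 for Col3a1. These 2 calls of 6 stand beside 2.24% of all genes. With all 5 libraries in the fit 0 of the 6 were called, beside 0.0135% of all genes. The count also fell when any 1 library was left out. Nrp1, Nrp2, Vegfc, Flt4 and Ecscr were lower in the same 3 libraries as these sums; the part of mesenchymal cells in those differences was not tested. Of 12 biliary and progenitor markers, 3 rose in M9 and M10, beside 2.24% of all genes (Prom1, Krt7 and Krt19, by 1.19 ± 0.15, 1.11 ± 0.15 and 1.14 ± 0.18 on the log2 scale, edgeR adjusted p = 0.0264, 0.0303 and 0.0436). With all 5 libraries in the fit, 0 of these 3 were called, beside 0.0135% of all genes. The count for this list fell when M11 or M12 was left out and rose when M9 or M10 was, as over all genes. In the third library Prom1 differed by 1.29, Krt7 by -0.80 and Krt19 by -0.60, and 7 of the 12 lay below organoids alone.

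Across the 10 genes, edgeR called 2, Flt4 lower and Ptprb higher, where it called 2.24% of all genes tested; because the list was chosen on these libraries, nothing is read from that count. Neither call held without M11 (0.292% of all genes called), without M12 (0.0%) or with all 5 libraries in the fit (0.0135%), where 0 of the 10 were called. Without M9, 9 were called, all but Flt1, beside 15.7% of all genes, and without M10, 6 were called (Ecscr, Flt4, Mrc1, Nrp2, Ptprb and Vegfa) beside 6.68%. DESeq2 called 5 of the 10 and 8.26% of all genes, edgeR with no low-count filter called 5 and 4.92%, and with total count scaling or a filter of 1 CPM edgeR called 3, beside 2.6% and 2.73%. M9 and M10 did not overlap M11 and M12 for 9 of the 10 genes, against 49.4% of all genes tested. All 3 co-cultures lay outside the range of organoids alone for 7: Vegfa and Ptprb above (2 of 10, against 15.1% of all genes), and Flt4, Ecscr, Nrp1, Nrp2 and Vegfc below (5 of 10, against 17.0%), in all 32.2% of 14407 genes compared over the 5 libraries. For Ptprb the third library lay only just above, at 10.1 CPM against 9.55 CPM in M11, which its counting interval covers. Flt1 and Mrc1 overlapped once the third library was counted, and Vegfb with or without it. 

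**Figure D5:**
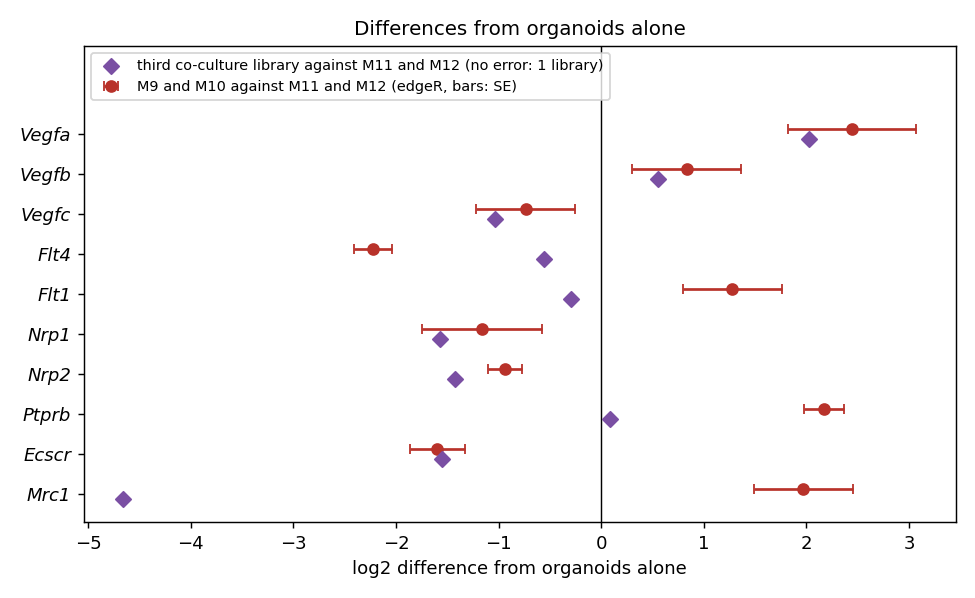
Log2 difference from organoids alone of M9 and M10 (circles, bars are the SE of the edgeR fit) and of the third library (diamonds, 1 library and no error) for the 10 genes. Vegfa lies at 2.44 and 2.02 and Ecscr at -1.60 and -1.55, whereas Mrc1 lies at 1.97 and -4.65 and Ptprb at 2.17 and 0.09.

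Of the genes for VEGF-C activation, edgeR called 0 of 4 tested, beside 2.24% of all genes, with a median log2 difference of -0.84. An unadjusted p under 0.05 was reached by 2 of the 4, beside 2779 of all 15899 genes. DESeq2 called 1, beside 8.26% of all genes, and limma-voom called 0. The count by edgeR rose when M9 was left out, as it did over all genes. Ccbe1, the secreted scaffold that brings VEGF-C to its protease, had 389 and 259 counts alone and 164, 76 and 32 in M9, M10 and the third library (log2 difference -1.72 ± 0.49, adjusted p = 0.155, edgeR). Adamts3, the protease itself, had 6, 5, 1, 0 and 0 counts. Of the proprotein convertases that make the first cut, Furin differed by 0.14 (adjusted p = 0.710), Pcsk7 by 0.04 (adjusted p = 0.943) and Pcsk5 by -2.55 (adjusted p = 0.174), all by edgeR. The angiopoietins, ligands of TIE2, were scarce: Angpt1 had 2, 11, 1, 0 and 85 counts, Angpt2 had 11, 17, 14, 4 and 26, Angpt4 had 3, 3, 5, 5 and 0, and Tie1, the orphan receptor of the pair, had 9, 5, 7, 0 and 6. Of 49 tested genes for VEGF signal transduction inside the cell, 1 rose and 0 fell, with a median log2 difference of -0.04. The one that rose was Vav2, a guanine nucleotide exchange factor, by 1.01 ± 0.15 (adjusted p = 0.0371, edgeR). Vav2 stood at 64.0 and 59.5 CPM alone, against 117.2, 132.1 and 113.0 CPM in M9, M10 and the third library, so all 3 co-cultures lay above organoids alone; its call was lost without M11, without M12 and with all 5 libraries (0 of 49). In this list 1 of 49 was called where 2.24% of all genes were, 7 without M9 beside 15.7%, 3 without M10 beside 6.68% and 6 by DESeq2 beside 8.26%, so its share of calls was near that over all genes. Among 19 other secreted angiogenic factors and inhibitors, edgeR called 0 of 16 tested, beside 2.24% of all genes, with a median of -0.45. Of these 19, Angptl4 and Adm are also among the hypoxia-inducible genes, so the counts of these lists are not separate. An unadjusted p under 0.05 was reached by 8 of the 16, beside 2779 of all 15899 genes tested. DESeq2 called 7 of the 16, beside 8.26% of all genes, and limma-voom called 0. The count by edgeR rose when M9 or M10 was left out, as it did over all genes. Col18a1, the source of endostatin, and Thbs1, thrombospondin 1, were the most abundant of them, with log2 differences of 0.41 (adjusted p = 0.225, edgeR) and -1.46 (adjusted p = 0.312, edgeR).

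The genes whose profile over M11, M12, M9 and M10 was nearest to that of each member were found among 9676 genes, for all members but Flt1, whose level was too low, by the root mean square difference in centred log2 CPM. For Vegfa these were Lrp1 (0.182), Rgs11 and Pgam1-ps2, for Vegfb Pdk2 (0.053), Sema3b and Nlgn2, and for Vegfc Rfc3 (0.041), Pclaf and Nuf2. For Flt4 they were Fzd3 (0.136), Miga1 and Gpx3. For the neuropilins they were Prl2c2 (0.11), Ccdc88a and Hmgcll1 with Nrp1, and Cpne8 (0.041), Pcdhgc3 and Dnajc27 with Nrp2. For Ptprb they were Iqgap2 (0.093), Srd5a1 and Mecom, for Ecscr Cryab (0.034), Gramd1a and Cnn3, and for Mrc1 Wnt4 (0.072), Ly6a and Prkg2. Over 4 libraries many genes come this close, and in the third library, which was not used for the ranking, likeness was uneven. The third library differed from organoids alone by 1.89 for Pgam1-ps2 beside 2.02 for Vegfa, but by 0.44 for Lrp1. For the genes nearest to Mrc1 it differed by 2.69 for Wnt4 and -2.29 for Ly6a, beside -4.65 for Mrc1.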

How the data were processed

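Per the labels' protocols, RNA of the 5 libraries (2 of organoids alone, 3 of co-culture) was isolated with a PicoPure kit, and stranded total RNA libraries were prepared after depletion of ribosomal RNA. Tools named in the submitters' processing notes are StringTie 2.1.3b, Bowtie2 2.3.4.1, HISAT2 2.1.0, FastQC 0.11.7 and Trimmomatic 0.38, and the builds are mm10 and GRCh37, without roles; how reads were counted, on which strand and with which annotation is not stated there. The authors deposited estimated counts per gene for 4 libraries (not whole for 31.7% of the genes with a count) and whole read counts for the third co-culture library. A further 10 columns of normalized values in these tables were not used. Columns were tied to groups by their names.

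Here the estimated counts were kept once per gene (rows repeat a gene with the same values), rounded, filtered with filterByExpr, scaled by TMM and tested with edgeR's quasi-likelihood test (edgeR 4.0.16, limma 3.58.1, R 4.3.3), with Benjamini-Hochberg adjustment over all 15899 genes tested and a threshold of 0.05. The standard error was taken as the log2 difference over the square root of F. CPM were scaled by TMM over 5 libraries. To compare genes, CPM were divided by the length of all exons in GENCODE M21, in place of the authors' normalized values. The third library's log2 difference used a prior count of 2 with no test. The fit was tested on simulated data with 200 changed genes, drawn from those with higher counts, and the same spread for every gene. It recovered 12% of 2-fold, 92% of 4-fold and 100% of 8-fold changes, with 10 false calls among 162. Most 2-fold changes would thus be missed, so a list with 0 calls can still hold changes of that size. These rates hold for the simulated setting only. In the libraries, differences above 4-fold were also left uncalled, among them Vegfa (5.44-fold) and Pgf (6.25-fold). Total counts of 26466739 to 58853737 per library set the counting precision; the spread between libraries was far larger. Promoters came from RefSeq (GRCm38.p6) and positions from GENCODE M21 (GRCm38).

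The 10 genes and the pathway and marker lists were chosen with earlier results of these data known. Besides the 10, the text names the genes called in each list (up to 4 by smallest p, or the 2 most abundant). It also names the genes of lists of 5 or fewer, fixed cell type markers and the 3 genes nearest to each member. Exceptions are marked, save Clec4f and Timd4, which also fall outside this rule. Alternatives were DESeq2 1.42.0, limma-voom, other scalings and filters, a fit of all 5 libraries and leaving out each library. A replicate block was not run, since the columns carry no replicate number.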

Additional observations from a re-analysis of the deposited data

How the results depend on the processing

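With the count of genes called, of the 10 members called and of pathway and marker genes called at 356, 2 and 18, the counts were 1404, 5 and 45 with no low-count filter, 1314, 5 and 50 with DESeq2, and 2, 0 and 0 with all 5 libraries in the fit. Leaving out each library in turn gave 0 to 2619 genes, 0 to 9 members and 0 to 51 pathway and marker genes: none without M12, 50, 0 and 2 without M11, 1114, 6 and 36 without M10 and 2619, 9 and 51 without M9. Without a library the lone one of its group is assumed to vary like the other group. At an unadjusted p under 0.05, edgeR passed 2779 genes. With total count scaling or a filter of 1 CPM in 2 libraries, 3 members were called (Ecscr besides Flt4 and Ptprb). DESeq2 and the fit with no filter called Ecscr, Mrc1 and Nrp2 besides those. Of 90 values of the members under alternatives that keep the libraries or add the third, 0 reversed direction; of 40 with a library left out, 1 did, Vegfb, which ranged from -0.22 without M10 to 1.45 without M9. No paired analysis was possible because the columns of the shared table carry no replicate number. Low counts limit Flt1 and, in the third library, Mrc1.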
